A study of Mus musculus with 186 samples.

Results

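The comparison described here asks how the response of mouse skin to injected bleomycin differed from the response of the lung in the same experiment at day 14, when the injections ended. It uses 16 of the study's 93 skin libraries, 8 of bleomycin and 8 of PBS, and likewise 16 of its 93 libraries of the superior lobe of the lung. All mice were female C57BL/6 of about 12 weeks. They were shaved between the shoulder blades and injected under the skin at 2 marked circles there, with bleomycin (10 mg/kg/day) or with PBS alone, 5 times a week for 2 weeks. Treated means bleomycin in what follows. The day 14 groups, BLM_d14 and PBS_d14, had no oral dosing. Skin was taken as a punch biopsy. The labels used here do not say whether the punch lay inside an injected circle. Each tissue contributed one effect per gene, bleomycin minus PBS on the log2 scale, and the quantity reported is the skin effect minus the lung effect. A positive difference means a more positive effect in skin, whatever the sign in each tissue.

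Bleomycin is a copper- and iron-binding glycopeptide drug that breaks DNA strands. Repeated injection under the skin is used as a model of scleroderma, a disease in which skin and internal organs become inflamed and then fibrotic. The skin near the needle meets the drug directly, and the lung meets what the blood carries. Fibrosis is the excess deposition of collagen, elastin, fibronectin and other matrix proteins by fibroblasts. DNA breaks activate p53, which induces genes of growth arrest and cell death. Interferons, which infected or damaged cells release, act through JAK kinases and STAT factors on a shared set of target genes.

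The day 14 libraries held 14.7 to 32.7 M counts (median 20.1 M). The lung markers Sftpc, Sftpb, Scgb1a1, Ager and Hopx summed to 17464 to 25595 CPM (counts scaled to an equal library total) in every lung library and to 70.0 to 138 in every skin library. The skin markers Krt5, Krt14, Krt10, Krt1, Lor and Flg summed to 6409 to 22267 CPM in skin, with medians of 6.68 in bleomycin lung and 16.7 in PBS lung. The tissue labels thus matched their markers. PBS lung replicate 6 stood apart with 8543 CPM of hair genes, where the other PBS lungs had at most 14.3, and with 692 CPM of skin markers. In PBS lung replicate 2 a single gene model held 7.41% of the counts. Results that rest on these libraries are given with and without both. The tissues were whole, so for any marker list fewer cells of a type and less RNA per cell cannot be told apart.

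Of 14943 genes expressed in both tissues, 5084 (34%) had a bleomycin effect that differed between skin and lung at an adjusted p below 0.05 (edgeR quasi-likelihood test, Benjamini-Hochberg over all genes tested). The difference was higher in skin for 2616 genes (17.5%) and lower for 2468 (16.5%). Without the 2 PBS lung libraries named above, 4656 genes were called and the split moved to 1750 higher and 2906 lower, so that the share called higher went from 51.5% to 37.6%. Of the 5084 calls, 82.6% were called again with the same sign and 5 were called with the opposite sign. At least a 2-fold difference was reached by 1725 called genes (11.5%), 805 higher (5.39%) and 920 lower (6.16%). Over all genes tested the median difference was 0.02, which the scaling of the libraries holds near 0.

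In skin itself 8561 genes (57.3%) were called, 4090 up (27.4%) and 4471 down (29.9%). In lung 6771 (45.3%) were called, 2860 up (19.1%) and 3911 down (26.2%). The overlap was 4357 genes, which is 50.9% of the skin calls and 64.3% of the lung calls, and 3711 of them had the same sign. The other 646 had opposite signs in skin and lung, 365 of them up in skin and down in lung and 281 the reverse. All 646 were also called in the difference, which opposite calls in the same fit make nearly certain. Most of the 5084 differences came from genes called in one tissue alone: 1118 up in skin, 1287 down in skin, 428 up in lung and 776 down in lung. The scatter of both effects shows these classes gene by gene.

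**Figure D1:**
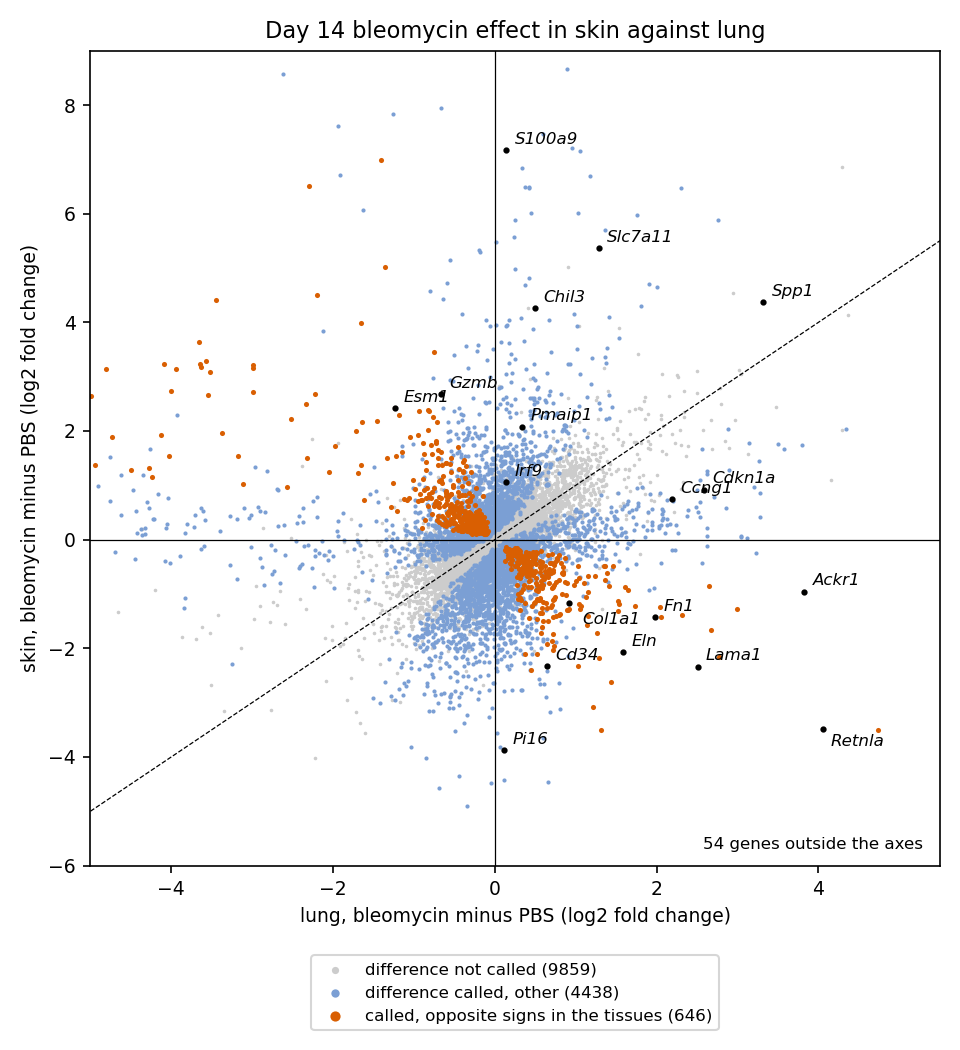
Bleomycin effect at day 14 in lung (x axis) and skin (y axis), each as a log2 fold change over PBS, for the 14943 genes tested (54 lie outside the axes). Blue points are called in the difference, orange points are the 646 called in both tissues with opposite signs, black points are named genes, and the dashed line marks equal effects. Fn1, Eln, Lama1 and Retnla lie at the lower right, and S100a9 lies at the top near the zero line of the lung.

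In the lists of fibrillar collagens, elastic fibres and resting fibroblast genes, lower differences were called for 18 of 28, 15 of 17 and 16 of 19 members and higher ones for none. Fn1 encodes fibronectin, the scaffold on which other matrix fibres assemble. In skin it measured 170.1 to 700.2 (median 354) CPM after bleomycin and 738 to 1726 (median 945) after PBS. In lung it measured 665 to 2909.6 (median 1089) CPM after bleomycin and 284 to 517 (median 358) after PBS. All 8 treated skins lay below all 8 PBS skins, and all 8 treated lungs lay above all 8 PBS lungs. Over all genes tested, such a complete separation was found for 12.9% downwards in skin and 7.19% upwards in lung. Fn1 fell by 1.43 in skin on the log2 scale, rose by 1.98 in lung, and had a difference of -3.41 ± 0.37 (SE; adjusted p = 5.5e-14).

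Col1a1, a chain of type I collagen, followed the same course at a smaller size. It measured 246 to 729 (median 548) CPM in treated skin and 819 to 1925 (median 1083) in PBS skin. In lung the values were 95.8 to 203 (median 136) CPM after bleomycin and 40.9 to 159 (median 63.8) after PBS. The skin groups did not overlap, and the lung groups did. The lung overlap came from PBS lung replicate 6 alone (159 CPM), and the next highest PBS lung had 82.2 CPM. The difference was -2.09 ± 0.43 (adjusted p = 2.61e-05), made up of -1.17 in skin and 0.92 in lung. Without the 2 PBS lung libraries named above, the difference was -2.35 and the lung effect 1.15. Col3a1, the chain of type III collagen, had a difference of -2.22 ± 0.34 (adjusted p = 3.44e-08), with -1.18 in skin and 1.04 in lung. Among the 28 tested genes of fibrillar collagens and their processing, the difference was lower in skin for 18 and higher for none, against 16.5% and 17.5% of all genes. In skin 19 fell and 3 rose, in lung 16 rose and 2 fell, and 12 were called in both with opposite signs. The median difference of the list was -0.91, with medians of -0.63 in skin and 0.36 in lung. Loxl1, a lysyl oxidase that cross-links elastin and collagen, had a difference of -2.19 ± 0.30. Adamts2, which trims the procollagen amino end, had -2.17 ± 0.26, and Pcolce, an enhancer of the protease for the carboxyl end, had -1.29 ± 0.15.

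Elastic fibres showed the largest share of lower calls among the matrix lists, 15 of 17, with none higher. In skin 13 of the 17 fell and none rose, and in lung 7 rose and 1 fell, with a median difference of -1.13. Eln encodes elastin, the rubber-like core of the fibre. It measured 17.4 to 34.5 (median 23.4) CPM in treated skin and 64.2 to 178 (median 90.1) in PBS skin, and in lung 196 to 722 (median 253) after bleomycin and 89.2 to 136 (median 112) after PBS. Neither tissue's groups overlapped, and they were ordered in opposite ways. The difference for Eln was -3.65 ± 0.38 (adjusted p = 6.77e-15). Fbn1, the fibrillin that forms the sheath around elastin, had a difference of -2.20 ± 0.24, and Mfap5, a microfibril protein, -2.56 ± 0.28. Mfap4, which binds the fibre, had -2.71 ± 0.34 from a fall in skin alone (-2.78), with a lung effect of -0.07 that was not called (adjusted p = 0.835).

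Other matrix lists leaned the same way. In the basement membrane list, the sheet under epithelia and around vessels, 14 of 22 were lower and 2 higher. Lama1, the laminin alpha 1 chain, had a difference of -4.84 ± 0.52, from -2.34 in skin and 2.51 in lung. Lama3, an epithelial laminin chain (1.00 ± 0.16), was among the higher ones. Among provisional matrix and matricellular proteins, 13 of 25 were lower and only Has3, a hyaluronan synthase (2.63 ± 0.58), was higher. Ccn2, a matricellular target of TGF-beta and YAP signalling, had -1.54 ± 0.27, and Thbs4, a thrombospondin, -4.93 ± 0.68. For Thbs4 the value was -7.12 without the 2 PBS lung libraries. Small leucine-rich proteoglycans, which space collagen fibrils, were lower in 7 of 9, with a lung median of 0.00. Dcn, decorin, measured 325 to 765 (median 601) CPM in treated skin against 2079 to 3140.5 (median 2579) in PBS skin, with no overlap. Lung libraries had 144 to 207 (median 165) CPM against 121 to 314 (median 152), and those groups overlapped. The lung effect of Dcn was 0.00 (adjusted p = 0.993), so its difference of -2.14 ± 0.24 equalled its fall in skin. Without the 2 PBS lung libraries the lung effect was 0.23, still not called, and the difference -2.40.

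**Figure D2:**
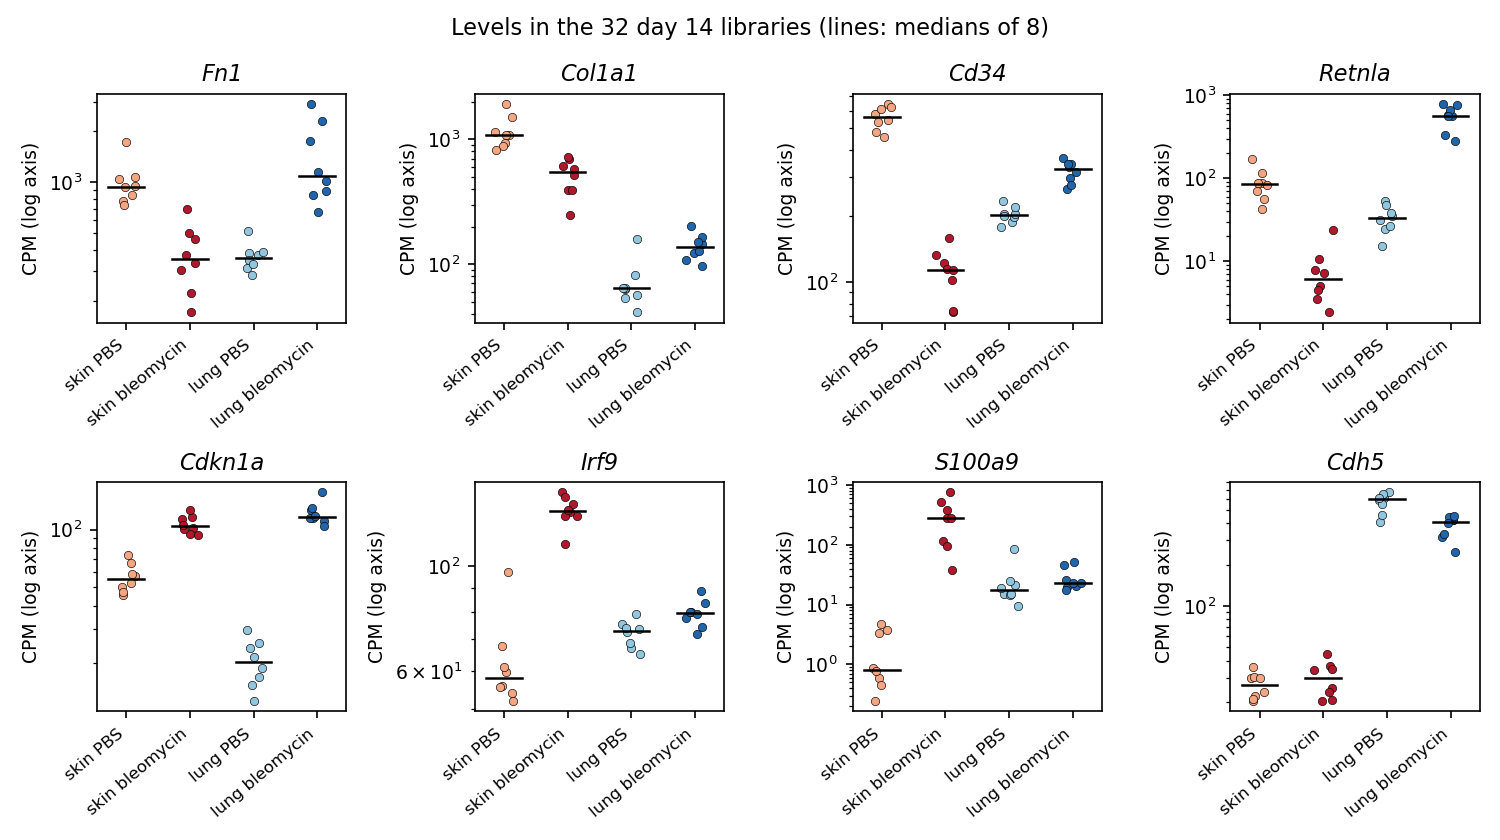
CPM of 8 genes in the 32 day 14 libraries on log axes, with 1 point per library and a line at the median of each group of 8. In Fn1, Cd34 and Retnla the treated skins lie below the PBS skins and the treated lungs above the PBS lungs, in Cdkn1a both tissues rise and lung rises further, and in Irf9 and S100a9 only the treated skins stand clear of their controls.

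Genes of resting fibroblasts mostly fell in skin. Of 19 tested, 18 fell in skin and 1 rose, and the median skin effect was -2.26. In lung 6 rose and 7 fell, with a median of 0.11, and the difference was lower for 16 and higher for none. The summed CPM of the list, which the most abundant members dominate, was lower after bleomycin in both tissues, without overlap. It was 1382 to 2347 in treated skin and 4698 to 7655 in PBS skin. In lung it was 3515 to 4693 after bleomycin and 5846 to 7162 after PBS. Cd34, a surface sialomucin of dermal fibroblasts and of endothelium, had the smallest p of all genes with a lower difference. It measured 72.9 to 159 (median 114) CPM in treated skin and 457 to 645 (median 562) in PBS skin. In lung it measured 265 to 366 (median 325) CPM after bleomycin and 178 to 233 (median 202) after PBS. The groups were apart in both tissues, downwards in skin and upwards in lung. Its difference was -2.97 ± 0.21 (adjusted p = 4.13e-25). Pi16, a marker of adventitial fibroblasts, had a difference of -3.99 ± 0.37 with a lung effect of 0.11 (adjusted p = 0.743). Dpt, dermatopontin, a small matrix protein, had -2.47 ± 0.22, and Clec3b, tetranectin, -4.53 ± 0.42. Cygb, the fibroblast globin, had -2.84 ± 0.24 with opposite calls in the tissues. The small lung rise of Dpt (0.37) was not called without the 2 PBS lung libraries.

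Several secreted regulators of growth and Wnt signalling were also lower. Sfrp1 binds and restrains Wnt ligands, and its difference was -3.70 ± 0.35, from -1.38 in skin and 2.32 in lung. Sfrp4, of the same family, had -4.82 ± 0.54, and Notum, an enzyme that inactivates Wnts, -2.89 ± 0.31 without a called lung effect (-0.34, adjusted p = 0.167). Of 31 Wnt ligands, receptors and inhibitors, 13 were lower and 3 higher, the latter a share below that of all genes. The 3 were the ligand Wnt4 (0.74 ± 0.20) and the receptors Fzd6 (0.56 ± 0.15) and Fzd10 (2.56 ± 0.68). Without the 2 PBS lung libraries Fzd10 was at 0.00 and Wnt4 at 0.45, and neither was called. Bmp4, a ligand of the TGF-beta superfamily, had -2.45 ± 0.19 and Gpc3, a cell-surface glypican, -2.60 ± 0.21. Both fell in skin, and neither was called in lung. Igf1, a growth factor that fibroblasts and macrophages secrete, measured 51.9 to 118 (median 81.6) CPM in treated skin against 126 to 203 (median 152) in PBS skin. Lung libraries had 68 to 147 (median 95.4) CPM against 24.7 to 43.6 (median 33.5), and neither pair overlapped. The difference for Igf1 was -2.58 ± 0.27 (adjusted p = 6.77e-15). Of the 12 IGF genes 5 were lower. The 2 higher, a share near that of all genes, were Igf2, the fetal ligand (2.86 ± 0.45), and Igfbp3, the main carrier in blood (0.96 ± 0.33). Igfbp3 was negative in both tissues and further down in lung, at -2.33 in skin and -3.23 in lung without the 2 PBS lung libraries. Igf2 had 2.33 in skin and -0.41 in lung in that fit.

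The TGF-beta list was divided, with 8 of 28 higher and 7 lower and a median difference of 0.13. The higher count was 5 without PBS lung replicate 5, a share near that of all genes. Skil, a repressor of SMAD factors that the pathway itself induces, had a difference of 1.30 ± 0.14. Lrrc32, which holds latent TGF-beta at the cell surface, rose by 1.13 in skin and had -0.37 in lung, a lung call that was lost without the 2 PBS lung libraries. The type II receptor Tgfbr2 had -1.27 ± 0.17 and Fstl3, an activin antagonist, -0.97 ± 0.14. Smooth muscle contractile genes were lower in 9 of 14 and higher in none, and Myl9, a myosin light chain, had -1.12 ± 0.14. Of 20 activated fibroblast genes, 8 were lower and 4 higher, the latter a share near that of all genes. Among the 4 were Runx1, a transcription factor (1.31 ± 0.16), and Col12a1, a collagen that associates with fibrils (1.02 ± 0.32). The others were Cdh2, N-cadherin (0.67 ± 0.27), and Lrrc15, a membrane protein of myofibroblasts (6.00 ± 1.28). Lrrc15 was called in lung and not in skin (0.81, adjusted p = 0.361), and its difference went to 0.37 without PBS lung replicate 6 and to -0.29 among plate 1 libraries. Cdh2 was called in only 13 of 32 fits that each left out 1 library. For Acta2, the actin used to mark myofibroblasts, no difference was called (-0.31 ± 0.16, adjusted p = 0.134). For Postn, periostin, the difference was 0.03 ± 0.26 (adjusted p = 0.953), and neither tissue was called at day 14.

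**Figure D3:**
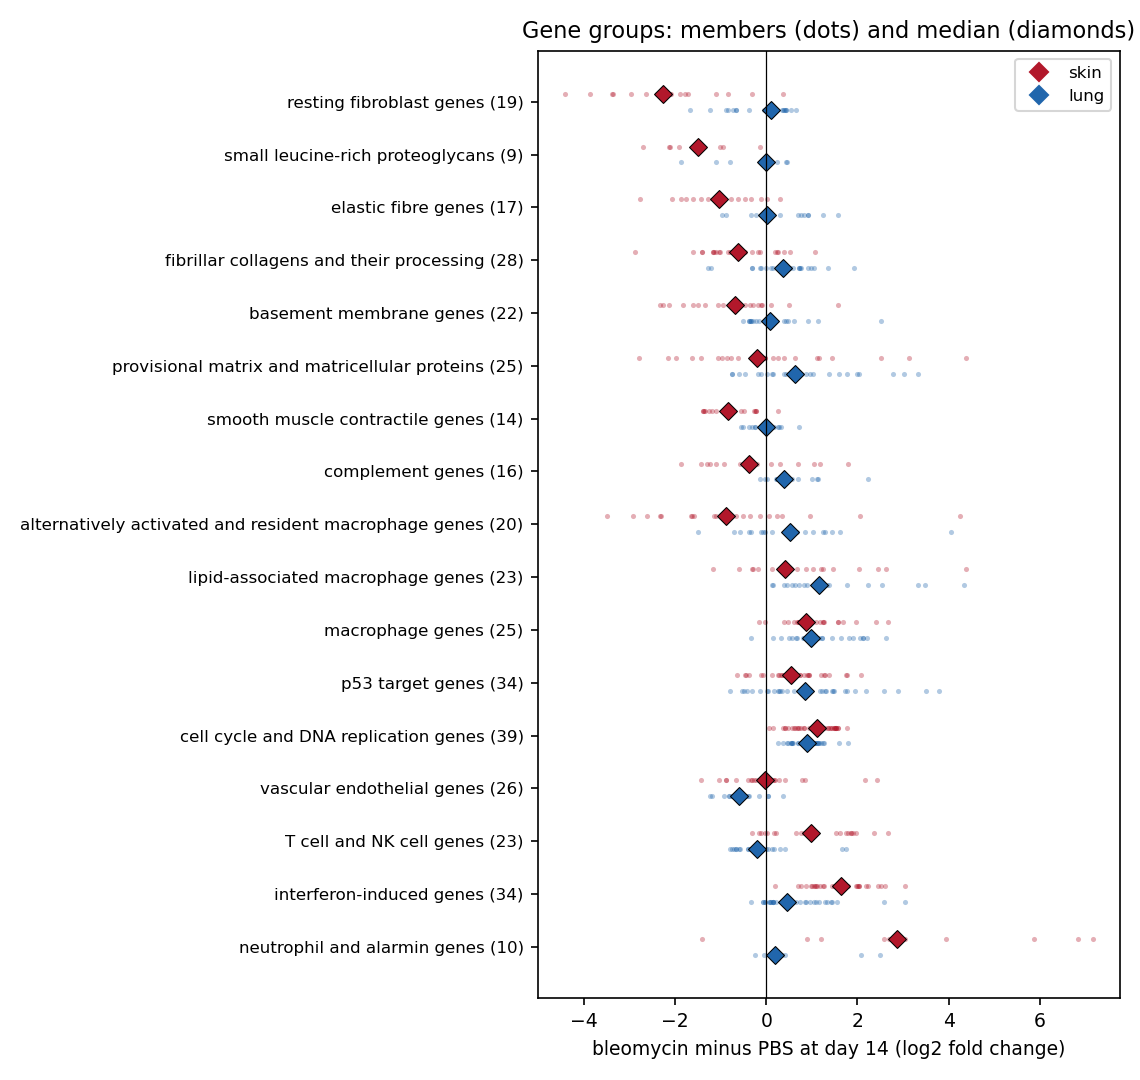
Bleomycin minus PBS at day 14 as a log2 fold change for 17 gene groups, with a dot for each member, a diamond at the median, skin in red and lung in blue, and the number of members tested in brackets. The skin medians of the resting fibroblast, proteoglycan and elastic fibre groups lie below -1, while the lung medians of the same groups lie near 0, and the cell cycle medians of both tissues nearly coincide.

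Most p53 targets rose in both tissues, and most of the differences were towards the lung. Of 34 targets, 24 rose in skin and 4 fell, and 24 rose in lung and 5 fell. In the difference, with a median of -0.26, 14 were lower and 6 higher, the latter a share near that of all genes. Without the 2 PBS lung libraries, 15 were lower and 4 higher. Cdkn1a encodes p21, which blocks the cyclin-dependent kinases. It measured 93.6 to 126 (median 104) CPM in treated skin against 45.4 to 73.9 (median 54.9) in PBS skin. In lung it measured 105 to 157 (median 117) CPM against 12.7 to 29.6 (median 20.1). All treated libraries exceeded all of their controls in both tissues, which upwards in skin held for 10.5% of all genes, and the PBS lungs lay below the PBS skins. The effect was 0.92 in skin and 2.58 in lung, a difference of -1.66 ± 0.19 (adjusted p = 4.81e-13). Ccng1, cyclin G1, measured 294 to 349 (median 322) CPM against 160.1 to 232 (median 191) in skin and 676 to 893 (median 723) against 137 to 225 (median 154) in lung. Its groups did not overlap in either tissue, and its difference was -1.45 ± 0.17. Phlda3, a brake on AKT, had -1.39 ± 0.15, and Gdf15, a stress cytokine, -2.05 ± 0.51. Without PBS skin replicate 4 the difference for Gdf15 was -1.09, and it was called in 31 of 32 fits that each left out 1 library. Mdm2, the ubiquitin ligase that degrades p53, rose by 0.74 in skin and by 0.86 in lung. Its difference of -0.12 ± 0.07 was not called (adjusted p = 0.181).

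Pmaip1, or Noxa, a BH3-only protein that promotes apoptosis, had the smallest p of the p53 targets, in the other direction. It measured 30.1 to 59.2 (median 41.2) CPM in treated skin and 6.42 to 13 (median 9.68) in PBS skin. In lung the values were 17.5 to 24.5 (median 20.6) CPM after bleomycin and 12.8 to 21.9 (median 16.1) after PBS. The skin groups lay far apart and the lung groups overlapped. The difference was 1.74 ± 0.17 (adjusted p = 4.8e-17). Bcl2l11, or Bim, another BH3-only protein, which is not on the p53 list, was called in opposite directions, at 0.84 in skin and -0.54 in lung, with a difference of 1.38 ± 0.13. Vav3, an exchange factor for small GTPases, had the smallest p among genes with a higher difference. Its levels were 120.4 to 148 (median 144) CPM in treated skin against 68.7 to 81.8 (median 76.7) in PBS skin, and 29.9 to 41.9 (median 36.3) against 43.1 to 61.6 (median 55.5) in lung. Treated skins lay above and treated lungs below their controls without overlap (downwards in lung, 8.83% of all genes), and the difference for Vav3 was 1.49 ± 0.11 (adjusted p = 1.95e-24). Sox7, an endothelial transcription factor (2.02 ± 0.19), and Atp11b, a phospholipid flippase (0.95 ± 0.09), shared this pattern of opposite calls, which Atp11b lost in lung without the 2 PBS lung libraries.

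Nearly all interferon-induced genes rose in skin, and fewer of them were called in lung. ISGF3, a transcription factor complex whose DNA-binding subunit is Irf9, binds DNA at the interferon-stimulated response element, whose core repeats GAAA. The motif GAAANNGAAA was searched on both strands, overlapping matches included, in the 250 bases before the start of each gene with a RefSeq promoter. It occurred in 393 of 11522 tested genes (3.41%) and in 12 of the 26 interferon genes that have a promoter in the table (46.2%). It occurred in 5.21% of genes with a higher difference, 2.86% of genes with a lower difference and 3.07% of genes not called. These matches are descriptions of sequence and not measured binding. Ifit3, Ifit3b and Bst2 also had 2 matches in the 250 bases and are not shown. The stretches below, from RefSeq on GRCm38.p6, are examples with 2 or more matches, from interferon genes that were called in skin. They are written 5′ to 3′ on the gene's strand, with the matches in capitals. The Isg15 stretch is chr4:156200865-156200918 on the minus strand, Oas1a chr5:120907526-120907567 on the minus strand, Ifit1 chr19:34640763-34640816 and Gbp3 chr3:142559977-142560030, both on the plus strand.
Isg15: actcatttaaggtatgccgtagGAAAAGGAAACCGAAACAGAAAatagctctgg
Oas1a: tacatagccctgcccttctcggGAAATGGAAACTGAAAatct
Ifit1: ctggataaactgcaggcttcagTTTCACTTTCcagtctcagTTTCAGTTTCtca
Gbp3: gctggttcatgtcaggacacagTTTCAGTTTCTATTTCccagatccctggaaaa

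These 4 genes differed in how far the lung took part. Isg15, a ubiquitin-like modifier, rose by 2.45 in skin and 1.45 in lung, a difference of 1.00 ± 0.40 (adjusted p = 0.0404). Oas1a, which senses double-stranded RNA, rose by 2.24 and 1.41, a difference of 0.82 ± 0.32 (adjusted p = 0.0373). Ifit1, which binds foreign RNA caps, rose by 1.73 and 1.05, and its difference of 0.68 ± 0.36 was not called (adjusted p = 0.139). Gbp3, a guanylate-binding protein, rose by 0.99 in skin and had 0.08 in lung, which was not called (adjusted p = 0.756). Its difference was 0.91 ± 0.27. Isg15 and Oas1a lay near the threshold: without the 2 PBS lung libraries they were at 0.92 and 0.80 and not called, and without PBS skin replicate 4 at 1.53 and 1.21. Ifit1 was at 1.18 without that skin library, and it was called in 1 of 32 fits that each left out 1 library.

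In the interferon list as a whole, 27 of 34 members had a higher difference and 1 had a lower one, against 17.5% and 16.5% of all genes. In skin 33 rose and none fell, and in lung 16 rose and none fell, with medians of 1.63 and 0.45. Irf9, the DNA-binding subunit named above, measured 111 to 143 (median 130.4) CPM in treated skin and 51.9 to 97.1 (median 57.9) in PBS skin. Lung libraries had 71.9 to 88.4 (median 79.5) CPM after bleomycin and 65.2 to 79.1 (median 73) after PBS. The treated skins stood clear of the PBS skins, and the lung groups overlapped. The difference for Irf9 was 0.91 ± 0.15 (adjusted p = 1.18e-07). Ifit2, a relative of Ifit1, had 1.82 ± 0.28, and Ifi44, of unsettled function, 2.15 ± 0.35. None of these 3 was called in lung. The lower call was Ifi27l2a, at -0.97 ± 0.40 (adjusted p = 0.0494), and it was made in 12 of 32 fits that each left out 1 library. The summed CPM of the list was 2866 to 3955 in treated skin, 922 to 1700 in 7 PBS skins and 2693 in PBS skin replicate 4. The count of higher calls was 30 without that library and 22 without PBS skin replicate 3, the lowest, and also 22 without the 2 PBS lung libraries.

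T cell and NK cell genes also had higher differences, 15 of 23 with none lower, and 13 without the 2 PBS lung libraries. In skin 16 rose and none fell, and in lung 2 rose and 6 fell, with medians of 0.98 and -0.19. Gzmb, the granzyme of cytotoxic granules, measured 4.12 to 8.69 (median 7.02) CPM in treated skin and 0.172 to 2.94 (median 0.751) in PBS skin. In lung it measured 2.61 to 4.55 (median 3.18) CPM after bleomycin and 3.56 to 6.36 (median 5.51) after PBS. The skin groups did not overlap and the lung groups did. The lung fall of Gzmb (-0.66) was not called without the 2 PBS lung libraries. The difference for Gzmb was 3.34 ± 0.39 (adjusted p = 7.27e-13). Cd8a, the co-receptor of cytotoxic T cells, measured 1.25 to 3.5 (median 3.03) CPM in treated skin against 0.508 to 1.22 (median 0.79) in PBS skin, and its difference was 2.21 ± 0.36. Its lung values were 2.81 to 5.0 (median 4.03) CPM after bleomycin and 3.01 to 7.44 (median 5.53) after PBS, and the lung effect of -0.36 was not called (adjusted p = 0.206). The NK receptors Ncr1 (2.53 ± 0.42) and Klrb1c (2.27 ± 0.35) had higher differences, and each fell in lung. Ccr7, the homing receptor of lymphocytes and migrating dendritic cells, had 2.88 ± 0.33, and Cd22, a B cell lectin, 4.16 ± 0.44. The B cell and plasma cell list was split, with 5 of 12 higher, among them the receptor subunit Cd79b (2.02 ± 0.38), and 3 lower, among them the IgE receptor Fcer2a (-2.32 ± 0.57). In MHC antigen presentation genes 3 of 20 were higher, a share no larger than the 17.5% of all genes, namely the immunoproteasome subunits Psmb9 (0.74 ± 0.24) and Psmb10 (0.74 ± 0.18) and the non-classical molecule H2-T23 (0.61 ± 0.19).

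Neutrophil and alarmin genes had the largest median skin effect of the lists, 2.87, and a median of 0.20 in lung. Of 10 tested, 9 rose in skin and 1 fell, and in lung 3 rose and none fell. The summed CPM of the list was 628 to 1763 in treated skin and 206 to 381 in PBS skin. In lung it was 1250 to 1679 after bleomycin and 749 to 978 after PBS. The difference was higher for 6 and lower for 1, Il1r2, a decoy receptor (-1.36 ± 0.42, and -2.17 without PBS lung replicate 6). S100a9, a subunit of the alarmin calprotectin that neutrophils and stressed keratinocytes make, measured 38.2 to 751 (median 278) CPM in treated skin and 0.244 to 4.69 (median 0.816) in PBS skin. Lung libraries had 17.5 to 52 (median 22.9) CPM after bleomycin and 9.52 to 84.9 (median 17.2) after PBS. The skin groups lay far apart and the lung groups overlapped. The difference for S100a9 was 7.03 ± 0.94 (adjusted p = 2.96e-10), and 6.39 without the 2 PBS lung libraries. S100a8, its partner, had 6.50 ± 0.99, Slpi, a protease inhibitor, 6.08 ± 0.64, and Cxcr2, the neutrophil chemokine receptor, 3.81 ± 0.54. Cxcl2, a ligand of that receptor, measured 0.877 to 448 (median 30.4) CPM in treated skin, 0.0618 to 0.90 (median 0.172) in PBS skin, 0.71 to 1.4 (median 0.976) in treated lung and 0.568 to 5.15 (median 2.31) in PBS lung. The treated skins spread more widely than any other group, and the lowest of them lay just below the highest PBS skin. The difference for Cxcl2 was 9.08 ± 0.93, and 7.66 without treated skin replicate 6. The same library carried the maximum of Il1b, a pyrogenic cytokine, and the difference for Il1b went from 4.32 ± 0.63 to 2.35 without it.

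Many keratin and cornification genes rose in treated skin, and the size of their differences rested in part on PBS lung replicate 6. Krt16, a wound keratin, measured 701 to 3983 (median 2275) CPM in treated skin and 13.2 to 51.3 (median 20.3) in PBS skin, which did not overlap. In lung it reached at most 5.90 CPM in PBS and 0.461 after bleomycin. Its difference was 8.81 ± 1.16, and 7.55 without the 2 PBS lung libraries. Krt6a, its partner, rose by 4.42 and Flg, filaggrin, by 3.29 in skin. The difference for Krt6a was 7.86 ± 1.15, and 4.48 without the 2 libraries. For Flg it was 6.87 ± 0.94, and 3.94 without them. Of 16 epidermal keratins, 8 rose and 2 fell in skin, and of 17 cornification genes 8 rose and none fell. In lung 11 of the keratins and 15 of the cornification genes were called down with all libraries, but 1 and none without the 2 libraries. The counts of higher differences went with them, from 9 to 6 keratins and from 15 to 2 cornification genes. For 20 hair genes the 8 higher differences and all 20 falls in lung were lost, and without PBS skin replicate 6 the higher differences were 18. Krt25, a keratin of the hair root sheath, went from 5.78 to -2.08 and Tchh, trichohyalin, from 4.31 to -1.63. The summed CPM of keratin and cornification genes was 35325 to 61647 in treated skin and 27431 to 33629 in PBS skin. Over the same libraries skeletal muscle genes summed to 6317 to 13422 CPM in treated skin and 10343 to 29321 in PBS skin. Adipocyte genes summed to 4021 to 7817 and 9461 to 14866 CPM. The part of these shifts in the makeup of the biopsies in the skin effects was not tested.

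**Figure D4:**
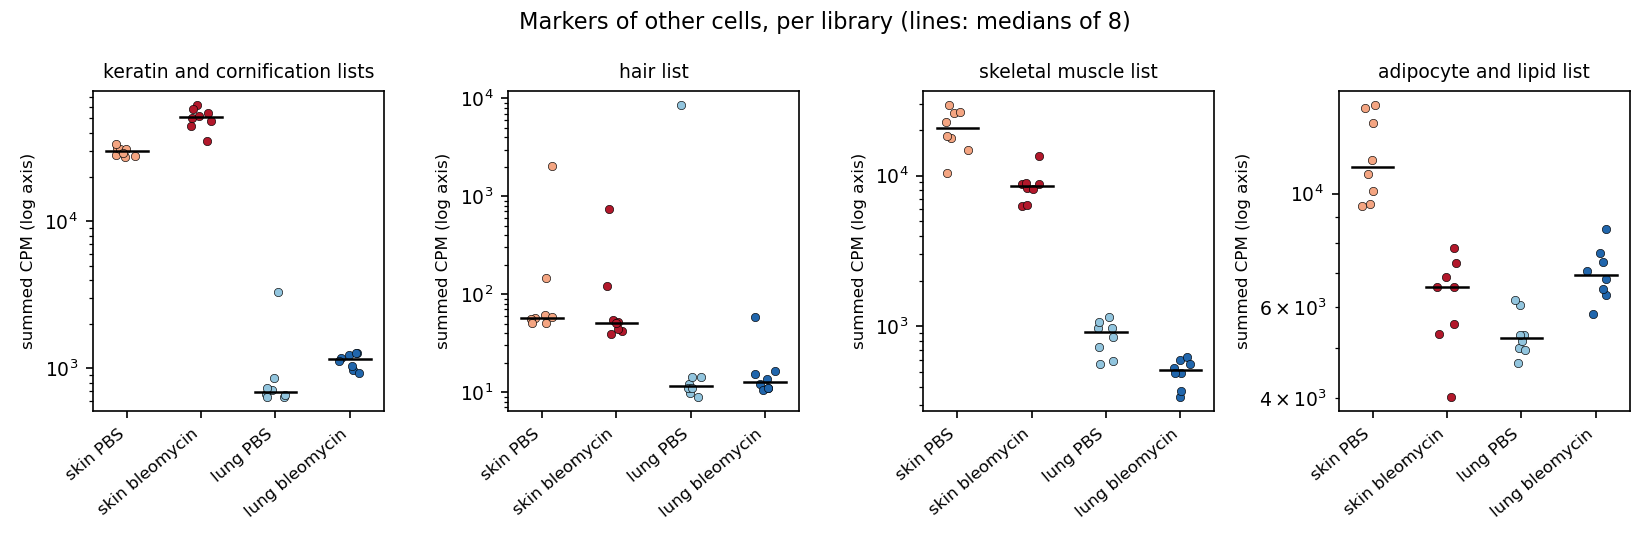
Summed CPM of 4 marker lists in each day 14 library on log axes, with a line at the median of each group of 8. Treated skins are higher in keratin and cornification genes and lower in adipocyte genes and, by the median, in muscle genes than PBS skins, and 1 PBS lung has 8543 CPM of hair genes where the others have at most 14.3.

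Most macrophage genes rose in both tissues. Of 25 general macrophage genes, 22 rose in each tissue, with medians of 0.88 in skin and 0.99 in lung, and 7 were called in the difference, 1 higher and 6 lower. The higher count was 3 without PBS skin replicate 4. Those lower included the complement C1q chains C1qa (-1.40 ± 0.33), C1qb (-1.49 ± 0.35) and C1qc (-1.60 ± 0.33), which tissue macrophages make. The one higher was Cd14, a co-receptor for endotoxin (1.99 ± 0.36, and 0.86 without treated skin replicate 6). Among 23 genes of lipid-associated macrophages, 14 were lower and 1 higher, with medians of 0.42 in skin and 1.17 in lung. Ctsk, a collagen-degrading cathepsin, measured 83.2 to 130.3 (median 113) CPM in treated skin and 94.6 to 175 (median 118) in PBS skin. In lung it measured 58.3 to 117 (median 91.7) CPM after bleomycin and 12.7 to 26.5 (median 18.9) after PBS. The skin groups overlapped, and the lung groups did not. The difference for Ctsk was -2.41 ± 0.33 (adjusted p = 6.48e-10). The member with a higher difference was Fabp5, a fatty acid carrier that keratinocytes also make (2.48 ± 0.36).

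Genes of alternatively activated and resident macrophages moved apart further, with 14 of 20 lower and 3 higher and a median difference of -1.49. Retnla, a secreted resistin-like protein of type 2 immunity, had the largest lower difference of all named genes. It measured 2.42 to 23.5 (median 6.16) CPM in treated skin and 42.5 to 172 (median 84.9) in PBS skin. Lung libraries had 279 to 785 (median 569.6) CPM after bleomycin and 15.1 to 53.2 (median 33.2) after PBS. All treated skins lay below and all treated lungs above their controls. The difference for Retnla was -7.55 ± 0.75 (adjusted p = 2.27e-16). F13a1, a transglutaminase subunit of resident macrophages, had -1.90 ± 0.25, and Cd209f, a lectin, -3.34 ± 0.41, both with opposite calls. The 3 higher, a share no larger than that of all genes, were Chil3, Cbr2, a carbonyl reductase (0.95 ± 0.24), and Arg1, arginase (2.38 ± 0.86; adjusted p = 0.0224). The value of Arg1 was -0.14 without PBS lung replicate 3. It also changed sign under 3 alternatives, to -0.28 with limma voom, -2.09 among plate 1 libraries and -0.071 with the replicate number as a term. Chil3, a chitinase-like protein, had 4.26 in skin and 0.50 in lung, where it was not called (adjusted p = 0.244). Its relative Chil1 had 4.41 ± 0.43. Complement genes were lower in 9 of 16 and higher in none, led by C1ra, a protease of the classical pathway (-1.69 ± 0.18), and including C3 (-1.87 ± 0.36).

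Vascular endothelial genes mostly fell in lung and were mixed in skin, which gives higher differences. In lung 22 of 26 fell and 1 rose, and in skin 5 rose and 8 fell. The difference was higher for 15 and lower for 1, Ramp2, a co-receptor for adrenomedullin (-0.62 ± 0.19). The count of higher calls was 13 without the 2 PBS lung libraries. Cdh5, VE-cadherin of endothelial junctions, measured 249 to 449 (median 411) CPM in treated lung and 409 to 672 (median 598) in PBS lung. In skin it measured 20.3 to 44.9 (median 29.7) CPM after bleomycin and 20.4 to 36.1 (median 26.7) after PBS. The groups overlapped in both tissues, with the lung medians further apart than the skin medians. These CPM were not corrected for plate. On plate 2 the treated lungs had 319 to 449 CPM and the PBS lungs 461 to 672, without overlap. On plate 1, with 1 lung in each group, the values were 249 and 409. The difference for Cdh5 was 0.74 ± 0.16 (adjusted p = 6.54e-05). Esm1, Apln and Aplnr rose in skin and fell in lung. Esm1, a proteoglycan of tip cells, measured 1.06 to 3.63 (median 2.49) CPM in treated skin and 0.0636 to 1.2 (median 0.386) in PBS skin, and 3.59 to 8.52 (median 6.25) in treated lung and 10.2 to 19.4 (median 14.6) in PBS lung. The skin groups overlapped, the lung groups did not, and the difference for Esm1 was 3.66 ± 0.42 (adjusted p = 6.8e-13). Apln, the ligand apelin, had 2.88 ± 0.31, and its receptor Aplnr 1.78 ± 0.28. Lymphatic endothelial genes, in contrast, fell in skin in 9 of 10, and 4 had a lower difference. Ackr1, the scavenging chemokine receptor of venules, had -4.78 ± 0.46, with -0.96 in skin and 3.83 in lung.

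Cell cycle genes rose in both tissues alike in number. Of 39, 37 rose in skin and 37 in lung and none fell in either, with medians of 1.12 and 0.89. Only 3 were called in the difference: Bub1, a spindle checkpoint kinase (1.04 ± 0.36), was higher, and E2f1 (-0.52 ± 0.17) and Ccne2 (-0.78 ± 0.30), both of the start of DNA replication, were lower. Bub1 was not called without the 2 PBS lung libraries (0.86). Over 32 fits that each left out 1 library, E2f1 was called in 31 and Ccne2 in 22, and without PBS skin replicate 6 no member was called lower. Mki67, the proliferation antigen Ki-67, measured 299 to 487 (median 374) CPM in treated skin and 121 to 261 (median 176) in PBS skin, and 78.7 to 245 (median 165) in treated lung and 32.4 to 189.9 (median 57.6) in PBS lung. The treated skins stood above their controls, and the lung groups overlapped. Its difference was 0.11 ± 0.39 (adjusted p = 0.864). Spp1, osteopontin, measured 24.8 to 549.8 (median 55.7) CPM against 3.43 to 9.14 (median 4.76) in skin and 496 to 1283 (median 976) against 59 to 140.0 (median 91.6) in lung, apart in both. It rose by 4.38 and 3.32, and its difference of 1.06 ± 0.59 was not called (adjusted p = 0.166) and was 0.13 without treated skin replicate 6. Timp1, an inhibitor of metalloproteinases, had 0.49 ± 0.56 (adjusted p = 0.544; -0.46 without PBS lung replicate 3), and Ccl2, the monocyte chemokine, -1.02 ± 0.53 (adjusted p = 0.126; -0.39 without PBS skin replicate 4). Both rose in both tissues. The SEs of these 3 differences were 0.53 to 0.59, and a p that missed the threshold does not show that the effects were equal.

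The remaining lists were split or small. Of all genes, 17.5% had a higher and 16.5% a lower difference. Chemokines and receptors had 11 of 32 higher and 9 lower, and IL-1 and IL-6 family cytokines 5 of 20 higher and 7 lower, among them Lif, a cytokine of the IL-6 family (-1.92 ± 0.29). Matrix proteases and their inhibitors had 5 of 26 higher, a share near that of all genes, and 12 lower. Mmp2, a gelatinase of fibroblasts, was at -2.27 ± 0.26. The 5 higher were Mmp13 (2.80 ± 0.87), a collagenase, Mmp8 (2.68 ± 0.56), the neutrophil collagenase, Mmp9 (1.84 ± 0.49), a gelatinase, Mmp28 (0.61 ± 0.23), of epidermis, and Plaur (1.89 ± 0.31), the urokinase receptor. Plaur was at 1.07 without treated skin replicate 6, and Mmp28 was not called without the 2 PBS lung libraries (0.58). In the fit without those lung libraries Mmp28 had -0.51 in skin and -1.09 in lung. Mmp13, Mmp8, Mmp9 and Plaur had positive skin effects there. Of 19 NRF2 targets, which protect against oxidants, 7 were lower and 3 higher, the latter a share no larger than that of all genes. The higher were Slc7a11, the cystine importer (4.09 ± 0.81), Gsta4, a glutathione transferase (3.80 ± 0.52), and Nqo1, a quinone reductase (0.96 ± 0.20). Adipocyte and lipid synthesis genes were lower in 11 of 25, with Scd1, a fatty acid desaturase, at -2.11 ± 0.30. Circadian clock genes had 2 of 18 higher and 4 lower.

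The same contrast was computed at the other days in libraries that the day 14 contrast did not use. From day 21 the groups had also received oral vehicle. At day 7, 2494 genes (16.7%) were called in the difference of effects, at day 21 4684 (31.3%), at day 28 4142 (27.7%) and at day 42 1768 (11.8%). Of the 2616 genes with a higher difference at day 14, 94.6% were higher at day 7, where 54.5% of all genes were. Called higher there were 1086 (41.5%), against 9.26% of all genes. At day 42, 58.5% were higher against 43.8% of all genes, and 270 (10.3%) were called, against 5.69%. Of the 2468 lower genes, 94.7% were lower at day 7 against 45.5% of all genes. Called lower there were 903 (36.6%), against 7.43% of all genes. At day 42, 56% were lower against 56.2% of all genes, so by sign alone the share was no higher than the background. Called lower at day 42 were 272 (11%), against 6.14% of all genes. Another 140 were called higher, where 5.69% of all genes were. A direct test found 89 genes (0.596%) whose difference changed between days 7 and 14, and 3354 (22.4%) between days 14 and 42. The count for days 7 and 14 was 243 without the 2 PBS lung libraries. Genes of skin and muscle also moved in lung on other days. At day 7 the lung median was -7.69 for hair genes and -3.85 for cornification genes (-6.81 and -3.28 at day 14). Higher differences were called for 14 of 20 and 16 of 17 (9.26% of all genes). At day 28 the lung median was 4.04 for cornification genes and 3.81 for skeletal muscle genes. Lower differences were called for 13 of 17 and 13 of 23 (15.7% of all genes). The share of single libraries in this was not tested.

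The gene groups differed in their course. The fibrillar collagen list had 18 lower calls and no higher call at day 14, but 20 higher and 1 lower at day 28, where 12% of all genes were called higher and 15.7% lower, with a median difference of 1.11, from 1.06 in skin and 0.19 in lung. Col3a1 had -1.38 at day 7 (adjusted p = 0.00232), -2.22 at day 14 and 1.58 at day 28 (adjusted p = 0.00048). Postn, which was not called at day 14, had 2.75 at day 28 (adjusted p = 3.35e-14). Fn1 had -1.93 at day 7 and -0.69 at day 21, where it was not called (adjusted p = 0.154). Eln was still at -3.44 at day 21 (adjusted p = 2.1e-12). The interferon list had 28 higher calls at day 7 (9.26% of all genes), 26 at day 21 (14.9%), 7 at day 28 and none at day 42 (5.69%). For Irf9 the differences were 0.88 at day 7 and 0.54 at day 21, and then 0.26 at day 28 (adjusted p = 0.211) and -0.01 at day 42 (adjusted p = 0.981), neither of which was called. T cell and NK cell genes had 14 of 23 higher at day 7, 21 at day 21 and 8 at day 28. The p53 list had 10 lower calls at day 7 (7.43% of all genes), 17 at day 21 (16.4%) and 11 at day 42 (6.14%), and Cdkn1a was called lower on each day. Vascular endothelial genes had 7 higher calls at day 7, 16 at day 21 and 19 at day 42, and Cdh5 was called higher on each day.

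**Figure D5:**
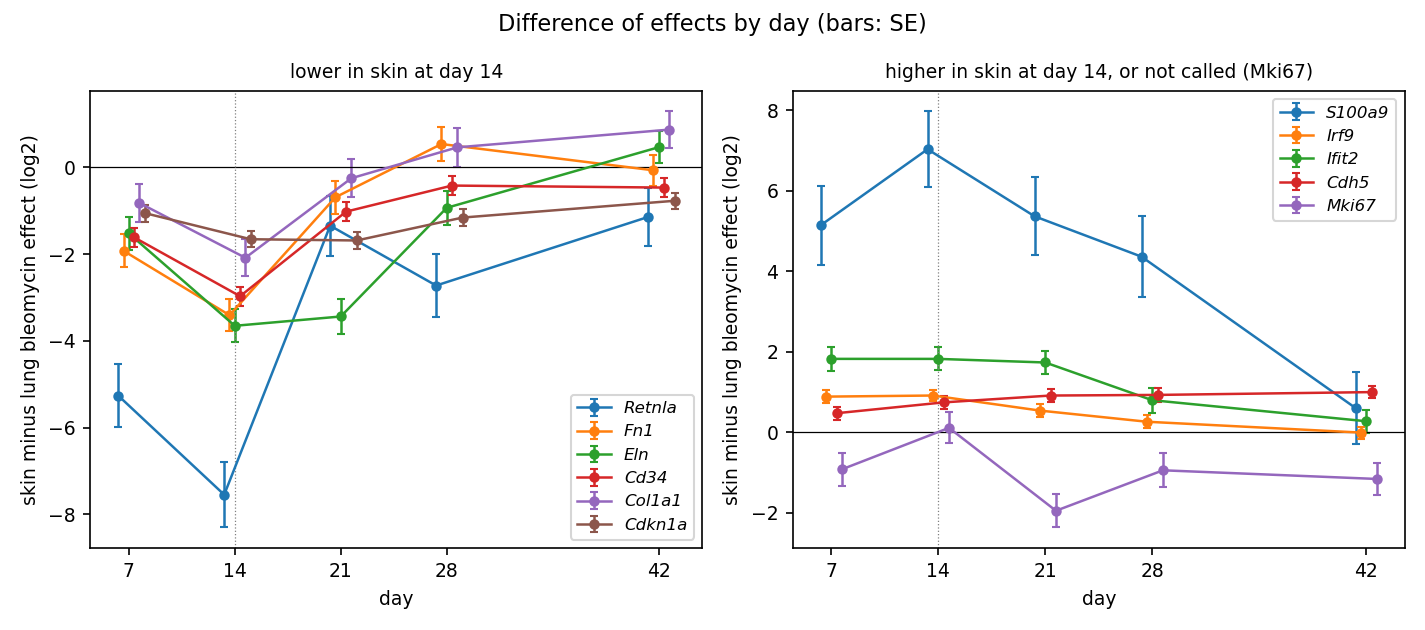
Skin minus lung bleomycin effect (log2, y axis) at days 7, 14, 21, 28 and 42 (x axis) for 11 genes, with bars of 1 SE and a dotted line at day 14. Retnla, Fn1, Eln and Cd34 are furthest from 0 at day 14, S100a9 and Irf9 are smallest at day 42, and Cdkn1a and Cdh5 keep their sign throughout.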

How the data were processed

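Superior lobes of lung and skin punch biopsies were profiled by total RNA sequencing after ribosomal RNA depletion with a stranded kit, per the labels' protocols. The authors deposited expected counts per gene, made with RSEM on GRCm38 per the submitters' processing notes, which also name edgeR. No version of either tool was found in the labels. The deposited expected counts, 83.7% of them whole, were rounded for the fits. The deposited log2 CPM table of the authors, corrected for plate, served in 1 alternative only.

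Libraries were grouped by their labels, and no pair of libraries was identical. The labels do not say which lung and skin came from the same mouse, and p-values measure the spread between these libraries. All libraries of both tissues were fitted together with edgeR 4.0.16 in R 4.3.3 (TMM scaling, quasi-likelihood F test), with 24 groups and a plate term for each tissue. Genes had to be expressed in both tissues, which 14943 of 22095 were. In each day 14 lung group 1 library was on plate 1 and 7 on plate 2, and in each day 14 skin group 4 were on each. P-values were adjusted over all 14943 genes by Benjamini-Hochberg, with a threshold of 0.05. Log2 fold changes came from the fit with its default settings, and a prior count of 2 was used only for log2 CPM values. Each SE was taken as the absolute log2 value divided by the square root of F. Depth was 14.7 to 32.7 M counts a library, which limits the precision of low genes.

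In simulated counts for the day 14 difference over 14943 genes, 69 of the 100 genes given a 2-fold difference and 52 of the 100 given a 1.5-fold difference were found, while 4 unaltered genes were called. The counts were drawn from the fitted model, and all other genes had no bleomycin effect at day 14. In the data 34% of genes were called, so these figures need not hold for the contrast itself. Alternatives with DESeq2 1.42.0 and limma 3.58.1, other scalings, filters, plate terms and subsets of libraries were also run. The genes named were those called with the smallest p or the largest difference in each direction, or with opposite signs in the tissues, at a mean log2 CPM of at least 1. To these were added 12 well-known fibrosis, damage and growth genes, as well as at most 5 members per list by p, with members of the opposite direction. Isg15, Oas1a, Ifit1, Gbp3 and Mdm2 lie outside that rule and were chosen after their values were seen. The comparison, the 43 gene lists and the promoter motif were chosen with earlier results of these data known. Some results are not reported here.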

Additional observations from a re-analysis of the deposited data

Results flagged for a closer look

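In groups of 8 libraries, 22 of 148 combinations of group and measure had an end value set apart from the nearest other by more than Dixon's critical share of the group's range at the 95% level. Chance gives about 1 in 20.

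PBS lung replicate 6 was the highest of its group in 6 of these: 8543 CPM of hair genes (next 14.3), 3323 of keratin and cornification genes, 692 of skin markers, 314 of Dcn and 84.9 of S100a9, and 2.33% ribosomal protein counts. PBS lung replicate 2 was highest in genes detected (20266) and in the share of its top gene (7.41%).

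In treated skin, replicate 4 was highest in hair genes (735 CPM) and lowest in Cd8a (1.25 CPM), in Irf9 (111 CPM) and in summed macrophage genes (3537 CPM). Treated skin replicate 5 was highest in skeletal muscle genes (13422 CPM) and vascular genes (713 CPM) and lowest in Vav3 (120.4 CPM), and replicate 1 was lowest in Col3a1 (1438 CPM).

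In PBS skin, replicate 1 was highest in Fn1 (1726 CPM), replicate 4 in Irf9 (97.1 CPM), replicate 5 in depth (32.7 M counts) and replicate 6 in hair genes (2035 CPM). In treated lung, replicate 8 was highest in hair genes (58.3 CPM) and replicate 7 in skin markers (22.5 CPM).

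Tests of a difference between groups gave 5084 genes whose effect differed between skin and lung at day 14, and 646 of these were called with opposite signs in the tissues. The difference changed for 89 genes between days 7 and 14, and for 3354 between days 14 and 42.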

How the results depend on the processing

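Between 4452 (no plate term) and 7191 (limma voom) genes were called in the day 14 difference over the other scalings, filters, tools and subsets, apart from the plate 1 libraries. Without each library in turn the count was 4841 to 5144 (higher 2405 to 2636, lower 2338 to 2535), in skin 8084 to 8591, in lung 6215 to 6862 and with opposite signs 577 to 661. Among plate 1 libraries, with 1 lung in each day 14 group assumed to vary like the other groups, 209 were called (83 higher, 126 lower), with 5541 in skin, 266 in lung and 6 with opposite signs. The same libraries gave 47 genes called again with the same sign at day 7, 70 at day 21, 89 at day 28 and 42 at day 42, and 0 and 17 for the changes from day 14 to days 7 and 42. With all libraries the counts called again at those days were 1989, 1575, 1219 and 542. They were 3503, 2592, 2499 and 866 with limma voom, which called 1269 genes with opposite signs and 1021 for the change between days 7 and 14. Among plate 2 libraries they were 390 at day 28 and 300 at day 42, and 31 changed between days 7 and 14. That last count was 44 with limma-trend and 243 without the 2 PBS lung libraries named in the report. The day 14 libraries alone gave 1061 genes with opposite signs. The cause of these shifts was not tested. The subsets hold fewer libraries, while limma voom used all of them.

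Same-numbered lung and skin libraries deviated together in 4 of 16 pairs (r over 0.1, highest 0.39), and 3 correlated best with their own number. Correlations between different tissues cannot settle whether equal numbers mark the same mouse. With a replicate block over lung and skin 6108 genes were called, and 6178 with the number as a block in each tissue. Of the genes named, Arg1 (-2.09) and Lrrc15 (-0.29) changed sign among plate 1 libraries, Arg1 also with limma voom (-0.28) and with the number as a block in each tissue (-0.071), and Krt25 among plate 2 libraries (-0.28). Krt25 (-2.08) and Tchh (-1.63) did so without the 2 PBS lung libraries. The alternative that leaves out libraries rich in ribosomal protein counts was not run, as none met its limit.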
